A study of Homo sapiens with 9 samples.

Results

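The nuclear genes for subunits of the oxidative phosphorylation complexes were followed across 3 groups of cultured human cells. Members were taken by symbol: genes whose symbol begins with NDUFA, NDUFB, NDUFC, NDUFS or NDUFV (complex I), UQCR (complex III), COX4 to COX8 (complex IV) or ATP5 (complex V, the ATP synthase), with SDHA to SDHD (complex II) and CYC1 (complex III). Assembly factors and antisense genes were left out. Of 19775 genes with a probe set annotated to 1 symbol, 81 met these prefixes, and 76 of them encode subunits (148 probe sets). The other 5, the inhibitor gene ATP5IF1, COX7A2L, the pseudogenes ATP5MC2P1 and COX6A1P1 and the non-coding NDUFV1-DT, were counted apart. Of the 76 subunit genes, 72 were bright enough to be tested, among 13598 genes tested in all. The other 4, COX4I2, COX7A1, COX7B2 and COX8C, were not.

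SCP51 and SCP58 are clones, each raised from 1 cell of SW480/EGFP, the human colorectal carcinoma line SW480 carrying the fluorescent protein EGFP. The labels give SCP51 a high and SCP58 a low metastatic potential, from surgical implantation into mice, and SW480/EGFP is their parent. All 3 were grown in the same medium without treatment, and each had 3 biological replicates, 9 Affymetrix arrays in all. Each metastatic class was 1 clone, so every difference here is between lines. Nothing in the labels tells whether replicates came from cultures kept apart, and the p-values reflect the spread among the arrays, which may be technical.

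Oxidative phosphorylation is the process by which mitochondria make most of the ATP of a resting cell. Complexes I and II pass electrons from NADH and succinate to ubiquinone, complex III passes them to cytochrome c and complex IV to oxygen, while the ATP synthase uses the proton gradient that complexes I, III and IV build. Most subunits are encoded in the nucleus and imported, a few of complexes I, III, IV and V in mitochondrial DNA, and those of complex II in the nucleus alone. Many of the nuclear genes are known targets of the transcription factors NRF1 and GABP, the second of which binds ETS letters. Colorectal carcinoma cells run both glycolysis and oxidative phosphorylation.

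The promoters of 3 members are shown because of what their genes did in the comparison of SCP51 with SCP58. NDUFA9 was called lower in SCP51, UQCRC1 had the highest difference of all tested members, and SDHA, the lowest member of complex II, held 4 copies of the letters known for NRF1. Each run is the 250 bases before the gene's start, 5′ to 3′ on the gene's strand, from RefSeq on GRCh38.p14, and capitals mark the NRF1 letters on either strand, which are GCGC, then A, any base, and GCGC.
NDUFA9 (chr12:4648864-4649113, plus strand): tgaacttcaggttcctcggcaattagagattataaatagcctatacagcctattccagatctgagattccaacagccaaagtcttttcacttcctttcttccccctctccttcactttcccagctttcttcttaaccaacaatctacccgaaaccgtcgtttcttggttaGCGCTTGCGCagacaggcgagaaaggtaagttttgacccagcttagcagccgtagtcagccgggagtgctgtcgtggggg
SDHA (chr5:218070-218319, plus strand): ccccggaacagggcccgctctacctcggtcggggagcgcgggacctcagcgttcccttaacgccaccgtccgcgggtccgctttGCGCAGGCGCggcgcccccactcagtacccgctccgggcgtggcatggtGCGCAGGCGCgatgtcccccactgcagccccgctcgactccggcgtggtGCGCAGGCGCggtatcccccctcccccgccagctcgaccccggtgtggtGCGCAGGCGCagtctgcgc
UQCRC1 (chr3:48609647-48609896, minus strand): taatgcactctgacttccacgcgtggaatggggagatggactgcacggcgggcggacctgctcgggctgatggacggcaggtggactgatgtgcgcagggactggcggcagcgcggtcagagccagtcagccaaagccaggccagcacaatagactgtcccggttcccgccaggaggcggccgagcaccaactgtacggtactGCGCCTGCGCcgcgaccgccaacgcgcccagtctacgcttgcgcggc
In NDUFA9 the match lay 80 to 71 bases before the start and in UQCRC1 47 to 38 bases before it. In SDHA the 4 matches began 166, 117, 68 and 19 bases before the start. Promoters were matched for 64 of the 76 members, and 14 of these (21.9%) held the NRF1 letters, against 5.53% of all 27305 promoters and 9.66% of the 10912 promoters of genes tested. The ETS letters CCGGAAG stood in 23.4% of the members' promoters, against 14.9% of those of genes tested. CCAAT, searched like the others on both strands, stood in 31.2% against 34.5%, and AANATGGCG, the letters of YY1, in 1.56% against 2.14%. None of these motifs contains another. The 13 tested members with NRF1 letters had a median log2 difference of -0.31 between SCP51 and SCP58, and the 49 without them had -0.37. Without replicate 1 of SCP51, whose array was unlike the others, these medians were -0.15 and -0.18. No promoter was matched for UQCRB, CYC1, COX6C or NDUFB9, so the members' motif shares and these medians do not cover those genes. A match of letters is a description of the sequence and does not show binding.

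Values are log2 of the deposited signal. Array medians lay between 5.36 and 5.47 on this scale. SCP51 replicate 1 was unlike the other 8 arrays: across genes it correlated with them at 0.891 to 0.911, and its GAPDH 3′ to 5′ probe ratio was 0.761, against 0.894 to 0.957 on the others. Its ACTB 3′ to 5′ ratio, 1.085, lay within the range of the others, 0.938 to 1.157. Most differences of SCP51 are also given without this array. Of 12 listed markers of colorectal epithelium, 9 lay above the array median on all 9 arrays, and KRT20 and LGR5 on none. Of the listed markers of other cell types, COL1A1 (fibroblast), CD3E (leukocyte) and VWF (endothelium) also lay above it on all 9 arrays. Marker signals of fibroblasts summed to 280 to 326 in SCP51, 280 to 326 in SCP58 and 325 to 345 in SW480/EGFP (6 genes), those of leukocytes to 147 to 186 in SCP51, 181 to 191 in SCP58 and 175 to 198 in SW480/EGFP (4 genes), and the 12 epithelial ones to 19073 to 24640 in SCP51, 19399 to 21339 in SCP58 and 20161 to 21200 in SW480/EGFP. A lower signal in bulk RNA cannot be split into fewer expressing cells and less RNA per cell.

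UQCRB and CYC1 of complex III and COX6C of complex IV, which all lie on chromosome 8, were lower in SCP51 than in SCP58 and the parent, at 59.2% to 70.0% of the signal of those groups. A gene was called where its limma p was under 0.05 after Benjamini-Hochberg adjustment across the 13598 genes. Between SCP51 and SCP58, 4 of 72 members were called lower, the fourth being NDUFA9, and 0 higher. Over all genes 2.6% were called lower and 1.48% higher, 4.08% in all. Between SCP51 and SW480/EGFP, 3 members, UQCRB, CYC1 and COX6C, were called lower and 0 higher, against 1.58% lower and 1.38% higher over all genes, 2.96% in all. Between SCP58 and SW480/EGFP, 0 of 72 members were called by limma, where 0.14% of all genes were called in either direction.

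The counts turned on single arrays. Without SCP51 replicate 1, 6 members were called lower than in SCP58 and 4 lower than in the parent, where 4.79% and 2.84% of all genes were. Without SCP51 replicate 3, 18 members were called lower than in SCP58 and 14 lower than in the parent, against 3.58% and 2.69% of all genes. With replicate 2 of SCP51, or replicate 2 or 3 of SCP58, left out in turn, 2 members were called against SCP58, UQCRB and CYC1 each time. Over all genes 1.36%, 1.04% and 1.24% were called in those fits, against 4.08% with all arrays. Without SW480/EGFP replicate 1 or replicate 3, 0 members were called against the parent by limma. Over all genes 0.942% and 0.905% were called there, against 2.96% with all arrays.

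UQCRB encodes a small subunit of complex III beside its ubiquinone-binding site. Its log2 signal was 10.70, 10.89 and 11.03 in SCP51, 11.69, 11.60 and 11.60 in SCP58, and 11.51, 11.44 and 11.61 in SW480/EGFP. All 3 SCP51 arrays lay below all 6 others, and SCP58 overlapped the parent. The log2 difference of SCP51 was -0.76 ± 0.10 from SCP58 (SE, n = 3 each; limma adjusted p = 0.00755) and -0.64 ± 0.10 from the parent (limma adjusted p = 0.0117), which is 59.2% of the SCP58 signal and 64.0% of the parent's. Tested by itself, a second probe set of the gene stood at -1.0 between SCP51 and SCP58 (limma adjusted p = 0.0103 over probe sets), and another, dimmer one at -0.48 was not called.

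CYC1 encodes cytochrome c1, the haem protein through which complex III hands electrons to cytochrome c. It measured 10.54, 10.43 and 10.52 in SCP51, 11.25, 11.07 and 11.22 in SCP58, and 11.04, 11.05 and 11.06 in SW480/EGFP. The 3 groups did not overlap, SCP51 lying lowest and SCP58 highest. The differences of SCP51 were -0.68 ± 0.08 from SCP58 (SE, n = 3 each; limma adjusted p = 0.0052) and -0.55 ± 0.08 from the parent (limma adjusted p = 0.0109). That of SCP58 from the parent, 0.13 ± 0.08, was not called (limma adjusted p = 0.795).

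COX6C encodes a small nuclear subunit of cytochrome c oxidase. Its values were 11.24, 11.42 and 11.63 in SCP51, 12.00, 12.03 and 11.99 in SCP58, and 11.92, 11.92 and 11.99 in SW480/EGFP. SCP51 again lay below every other array, and its own arrays spread over a wider range than those of the other groups. The differences of SCP51 were -0.58 ± 0.09 from SCP58 (limma adjusted p = 0.0156) and -0.52 ± 0.09 from the parent (limma adjusted p = 0.0249; SE, n = 3 each).

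The fourth member on chromosome 8, NDUFB9, an accessory subunit of the membrane arm of complex I, was not called with all arrays. It measured 10.89, 11.62 and 11.88 in SCP51, 12.17, 12.22 and 12.17 in SCP58, and 12.10, 12.22 and 12.10 in SW480/EGFP. All SCP51 arrays lay below the other 6, but replicate 1 lay well below the other SCP51 arrays. The difference from SCP58 was -0.72 ± 0.21 (limma adjusted p = 0.0959) and that from the parent -0.68 ± 0.21 (limma adjusted p = 0.136; SE, n = 3 each). Without SCP51 replicate 1 both were smaller and called, at -0.44 (limma adjusted p = 0.0148) and -0.39 (limma adjusted p = 0.0294). The same omission left UQCRB at -0.67, CYC1 at -0.70 and COX6C at -0.49 against SCP58, all still called.

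**Figure D1:**
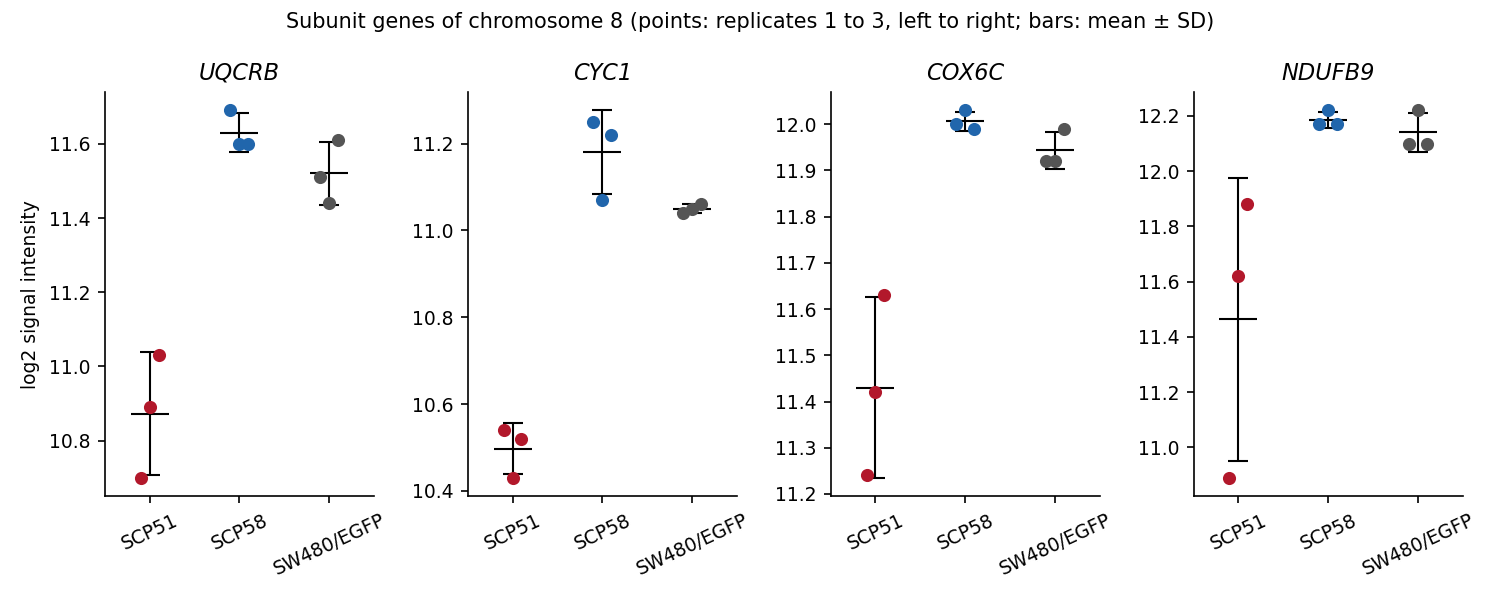
Log2 signal of the 4 members on chromosome 8 on each array (points, 3 per group) in SCP51, SCP58 and SW480/EGFP, with the group mean ± SD as bars; each panel has its own scale. In every panel the 3 SCP51 arrays lie below all arrays of the other groups, and NDUFB9 has the widest SCP51 range, 10.89 to 11.88.

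The plot of the chromosome 8 members shows that separation array by array. The same pattern, every SCP51 array below all 6 others, held for all 4 members on chromosome 8 and for 11 of the 68 tested members elsewhere (16.2%), against 9.63% of all genes. The 11 were NDUFA1, NDUFA9, NDUFB8, NDUFC1, NDUFS3, NDUFS4 and NDUFV2 of complex I, COX7B of complex IV, and ATP5MC3, ATP5MG and ATP5PO of the ATP synthase. Each gene was judged by its brightest probe set, and a dimmer probe set of ATP5MC3 stood at 1.22 between SCP51 and SCP58. SCP51 lay wholly below SCP58 in 17.2% of all genes and wholly below the parent in 18.6%.

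The members' neighbours on chromosome 8 were lower too. Among the 473 tested genes of the chromosome in map order, the 10 nearest on each side of UQCRB had a median log2 difference of -0.65 between SCP51 and SCP58, with 17 of 20 below 0 and 6 called lower. Around COX6C the median was -0.50 (18 of 20 below 0, 6 called lower), around NDUFB9 -0.51 (19 and 4), and around CYC1 -0.36 (17 and 3). No neighbour in these 4 windows was called higher, though the windows of UQCRB and COX6C share genes. Without SCP51 replicate 1 the medians were -0.50 around UQCRB, -0.52 around COX6C, -0.37 around NDUFB9 and -0.30 around CYC1, with 10, 9, 7 and 3 neighbours called lower and 1, near NDUFB9, called higher. Over all genes 65% lay below 0 in this comparison. Of all genes, 2.6% were called lower with all arrays and 4.79% without SCP51 replicate 1. Between SCP58 and the parent the medians of the 4 windows lay between -0.05 and 0.02, and 0 neighbours were called by limma. DNA copy number was not measured, and its part in these values was not tested.

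**Figure D2:**
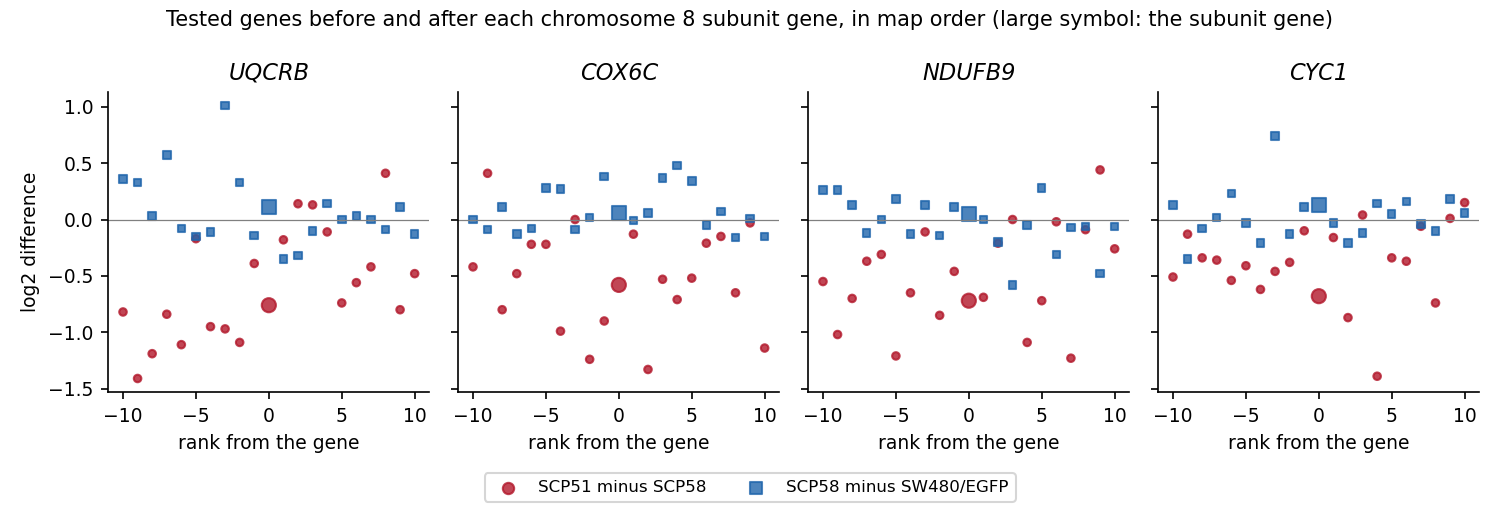
Log2 differences, SCP51 minus SCP58 and SCP58 minus SW480/EGFP, of each chromosome 8 member (rank 0) and the 10 nearest tested genes on each side, by rank in map order. The SCP51 minus SCP58 points lie mostly below 0, with medians of the 20 neighbours from -0.65 to -0.36, while the SCP58 minus SW480/EGFP points lie around 0.

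The plot of neighbours by rank shows that most neighbours lay below 0 between SCP51 and SCP58, though not all: of the 4 genes next to UQCRB on its higher-numbered side, MTERF3 stood at -0.18, PTDSS1 at 0.14, SDC2 at 0.13 and CPQ at -0.11. The differences between SCP58 and the parent scattered around 0. Outside chromosome 8, the median difference of the 68 tested members between SCP51 and SCP58 was -0.33, against -0.11 over all genes, with 62 of 68 below 0 (91.2%). On chromosome 8 the median of the 4 was -0.70. Against the parent the medians were -0.32 elsewhere and -0.60 on chromosome 8, with -0.10 over all genes. Between SCP58 and the parent they were -0.01 and 0.09. The shift of members elsewhere moved with 1 array: without SCP51 replicate 1 it stood at -0.16 against SCP58, where all genes stood at -0.05, while that of the chromosome 8 members stood at -0.58.

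**Figure D3:**
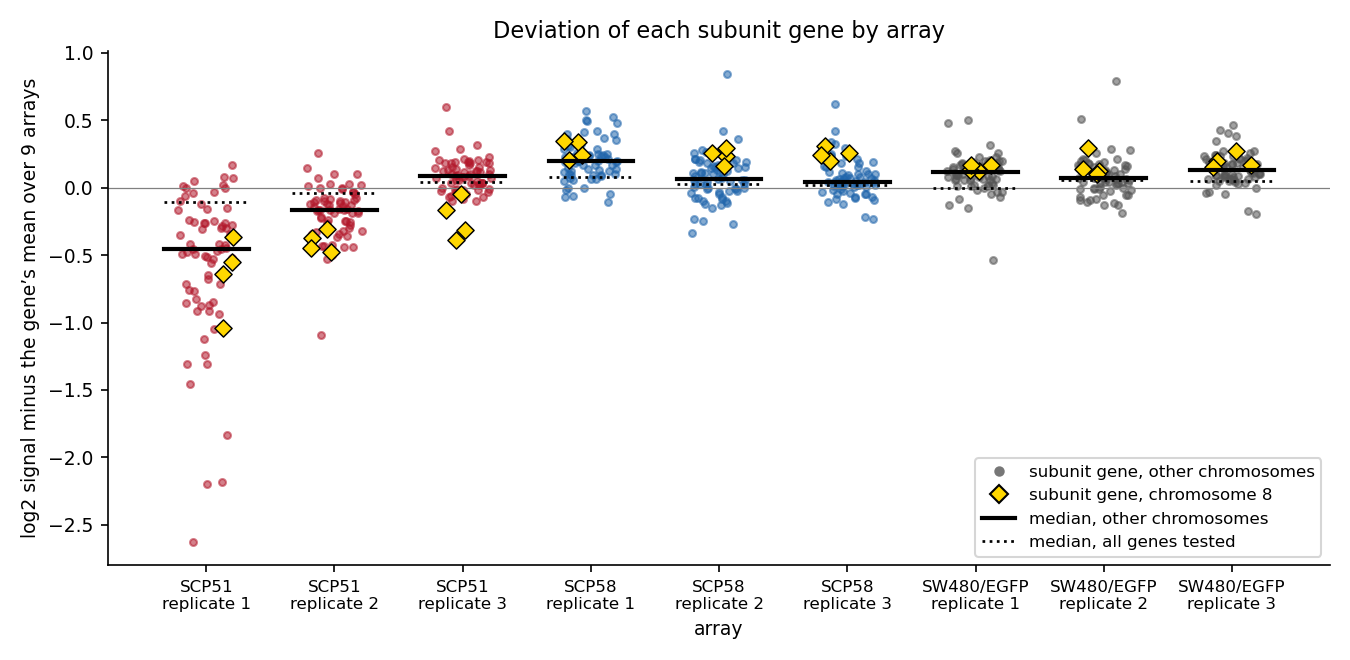
Log2 signal of each tested member minus that gene's mean over the 9 arrays, by array (points: other chromosomes; diamonds: chromosome 8), with the median of members on other chromosomes (solid line) and of all genes tested (dotted line). On the 3 SCP51 arrays the solid line stands at -0.46, -0.17 and 0.08 and the dotted line at -0.11, -0.04 and 0.04, and the diamonds lie below 0 on all 3.

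The plot of deviations by array separates the patterns of the members on and off chromosome 8. With the median of all genes on each array subtracted, the median of members off chromosome 8 was low on SCP51 replicate 1 (-0.35) and replicate 2 (-0.13) but not on replicate 3 (0.04), whereas that of the chromosome 8 members was low on all 3 (-0.48, -0.37 and -0.28). Of all 72 members, 50 (69.4%) had their lowest value of 9 on SCP51 replicate 1, as did 32% of all genes. Another 12 were lowest on SCP51 replicate 2 (16.7%, against 18.8% of all genes) and 1 on replicate 3. The gap of replicate 1 below the mean of the other SCP51 arrays exceeded 1 log2 unit in 9 members (12.5%), against 11.2% of all genes. The part of the GAPDH probe ratio or of RNA quality on that array in these values was not tested.

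**Figure D4:**
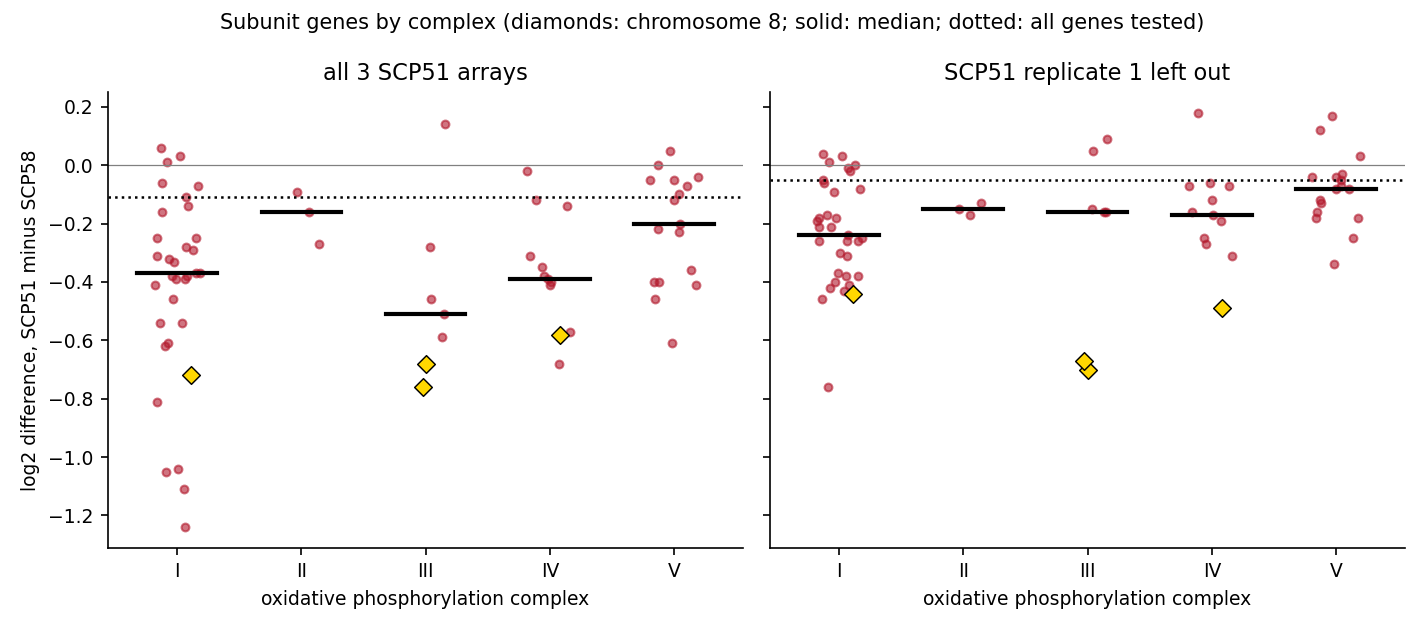
Log2 difference, SCP51 minus SCP58, of each tested member by complex (points; diamonds: chromosome 8), with the median of the complex (solid line) and of all genes tested (dotted line), using all 3 SCP51 arrays (left) and leaving out SCP51 replicate 1 (right). With all arrays the lowest member, NDUFB1, stands at -1.24, and without that array the lowest is another gene, NDUFA6, at -0.76.

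In the plot of differences by complex, complex III stood lowest between SCP51 and SCP58, with a median of -0.51 over 7 members. Complex IV stood at -0.39 (12 members), complex I at -0.37 (33), the ATP synthase at -0.20 (17) and complex II at -0.16 (3). Without the chromosome 8 genes, complex III stood at -0.46 (5 members). Without SCP51 replicate 1 the medians were -0.24 for complex I, -0.15 for complex II, -0.16 for complex III, -0.17 for complex IV and -0.08 for the ATP synthase. The order of the complexes changed with 1 array, and no difference between complexes was tested.

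In complex I, NDUFA9, an accessory subunit where the peripheral arm meets the membrane arm, was called. It measured 9.49, 9.64 and 9.84 in SCP51, 10.30, 10.15 and 10.13 in SCP58, and 9.96, 10.04 and 9.90 in SW480/EGFP. SCP51 lay below both other groups and SCP58 above the parent, without overlap. The difference of SCP51 from SCP58 was -0.54 ± 0.12 (SE, n = 3 each; limma adjusted p = 0.0435), and those of SCP51 from the parent, -0.31, and of SCP58 from the parent, 0.23, were not called. Without SCP51 replicate 1 the difference from SCP58 was -0.46 (limma adjusted p = 0.0366). The call against SCP58 held in 7 of 19 alternative analyses, with adjusted p between 0.0295 and 0.14.

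NDUFB1, a small accessory subunit of the membrane arm, had the lowest difference of complex I outside chromosome 8, and 1 array carried it. It measured 7.15, 9.67 and 10.19 in SCP51, 10.34, 10.19 and 10.19 in SCP58, and 10.03, 9.96 and 10.24 in SW480/EGFP. The difference from SCP58 of -1.24 ± 0.65 (SE, n = 3 each; limma adjusted p = 0.319) was -0.31 without SCP51 replicate 1. The membrane-arm subunits NDUFB7 and NDUFB11 also lay over 2 log2 units lower on that array than on the other SCP51 arrays, both by a gap of -2.19, and stood at -0.30 and -0.38 against SCP58 without it. NDUFB5 stood at 0.06 ± 0.11, the highest difference of the complex, and the brightest member outside chromosome 8, NDUFB4, at -0.38 ± 0.22, which was -0.09 without SCP51 replicate 1. NDUFC1, an accessory subunit, was called without SCP51 replicate 1, at -0.42 against SCP58 (limma adjusted p = 0.0484).

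In complex II, which links the tricarboxylic acid cycle to the chain, no member was called between SCP51 and SCP58. Over all genes 4.08% were called. SDHA, the flavoprotein that oxidises succinate, measured 9.74, 10.19 and 10.10 in SCP51, 10.26, 10.22 and 10.34 in SCP58, and 10.09, 10.27 and 10.24 in SW480/EGFP. Its difference from SCP58 was -0.27 ± 0.13, and the membrane anchors SDHC and SDHD stood at -0.16 ± 0.10 and -0.09 ± 0.10 (SE, n = 3 each). The differences without SCP51 replicate 1 were -0.13 for SDHA, -0.17 for SDHC and -0.15 for SDHD.

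In complex III outside chromosome 8, the core protein UQCRC1 and the small subunit UQCRQ marked the ends of the range. UQCRC1 measured 11.58, 11.52 and 11.40 in SCP51, 11.31, 11.32 and 11.46 in SCP58, and 11.29, 11.49 and 11.37 in SW480/EGFP, a difference of 0.14 ± 0.09 from SCP58 (limma adjusted p = 0.408; SE, n = 3 each). UQCRQ measured 10.00, 11.10 and 11.44 in SCP51 and 11.64, 11.35 and 11.30 in SCP58, a difference of -0.59 ± 0.31 that was -0.16 without SCP51 replicate 1. UQCR10, the brightest, stood at -0.28 ± 0.15, and at -0.15 without that array, where UQCRC1 stood at 0.09.

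In complex IV, COX5A, a subunit on the matrix side, had the lowest difference outside chromosome 8. It measured 9.60, 10.95 and 11.24 in SCP51, 11.41, 11.21 and 11.21 in SCP58, and 11.31, 11.27 and 11.31 in SW480/EGFP. The difference from SCP58 was -0.68 ± 0.35 with all arrays (limma adjusted p = 0.31; SE, n = 3 each) and -0.19 without SCP51 replicate 1. A dimmer probe set of COX5A, tested by itself, was called lower at -0.51 (limma adjusted p = 0.0378 over probe sets). It measured 6.38, 6.43 and 6.44 in SCP51, 6.95, 6.95 and 6.90 in SCP58, and 7.0, 6.72 and 6.84 in SW480/EGFP, and all SCP51 arrays lay below the other 6. COX4I1, the broadly expressed form of subunit 4, stood at -0.41 ± 0.21 by its brightest probe set, and at -0.12 without SCP51 replicate 1. A dimmer probe set stood at 0.65 and was called higher when every probe set was tested by itself (limma adjusted p = 0.0378), so its probe sets disagreed. NDUFV3, a small subunit of complex I, likewise had a dimmer probe set at 0.49 (limma adjusted p = 0.0489) beside a brighter one at -0.11. Of the 31 members with several probe sets above the filter, 19 had all of them below 0 between SCP51 and SCP58.

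The isoforms of complex IV known from muscle, lung or testis were dim in all 3 groups. COX4I2 lay between 5.17 and 5.36, COX7A1 between 3.60 and 4.43, COX7B2 between 2.63 and 3.72 and COX8C between 1.68 and 2.40 over the 9 arrays, each under the array medians. COX6A2, the muscle form, ranged over 4.88 to 5.96 and COX6B2, the testis form, over 5.54 to 5.78, near those medians. Their broadly expressed counterparts were bright and not called between SCP51 and SCP58: COX6A1 stood at -0.40 ± 0.17, COX6B1 at -0.31 ± 0.13, COX7A2 at -0.39 ± 0.24 and COX8A at -0.38 ± 0.13 (SE, n = 3 each). Their differences without SCP51 replicate 1 were -0.17 for COX6A1, -0.16 for COX6B1, -0.06 for COX7A2 and -0.27 for COX8A.

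In the ATP synthase, 0 of 17 members were called by limma in the comparisons of SCP51 with SCP58 and with the parent. Over all genes only 4.08% and 2.96% were called in those comparisons. ATP5F1A, the alpha subunit of the catalytic head, was the brightest and measured 12.25, 12.51 and 12.39 in SCP51, 12.34, 12.38 and 12.53 in SCP58, and 12.43, 12.40 and 12.44 in SW480/EGFP. The groups overlapped, and the difference from SCP58 was -0.04 ± 0.08 (SE, n = 3 each). ATP5MK, a small membrane subunit, stood lowest at -0.61 ± 0.23 and ATP5F1D, the delta subunit, highest at 0.05 ± 0.16. ATP5MK stood at -0.34 and ATP5F1D at 0.17 without SCP51 replicate 1. Of the 3 genes that encode the same subunit c of the rotor ring, ATP5MC1 stood at -0.22 ± 0.12, ATP5MC2 at 0.00 ± 0.14 and ATP5MC3 at -0.10 ± 0.06, and without that array at -0.12, 0.12 and -0.07. These are the values of each gene's brightest probe set. A second probe set of ATP5MC3 stood at -0.15. A dimmer one stood at 1.22 and was not called (limma adjusted p = 0.0848 over probe sets), so its probe sets disagreed.

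Between SCP58 and SW480/EGFP the members' differences centred near 0. The median was -0.01, with 40 of 72 below 0 (50.1% of all genes), and single members ranged between -0.23 and 0.50. The highest was NDUFA6, at 0.50 ± 0.50 by its brightest probe set, whose values varied widely in all groups. A dimmer probe set of NDUFA6 varied less and stood at -0.18. Between SCP51 and SCP58 the brightest stood at -1.05 and the dimmer at 0.25, so the 2 disagreed. SDHC stood at 0.25 ± 0.10 by its brightest probe set, its SCP58 arrays lying above all parent arrays (limma adjusted p = 0.526). Its other probe sets above the filter stood between -0.20 and 0.10, the next brightest at 0.02.

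Genes that work with these complexes were taken from lists of assembly factors, mitochondrial ribosomal proteins, metabolic enzymes, carriers and regulators. Of 51 tested assembly factors of the complexes, 2 were called lower and 1 higher in SCP51 than in SCP58, beside the 2.6% lower and 1.48% higher of all genes. Both lower ones lie on chromosome 8: NDUFAF6, an assembly factor of complex I, at -0.95, and TMEM70, which helps to assemble the ATP synthase, at -0.47. NDUFAF2, a complex I assembly factor on chromosome 5, was higher at 0.76, and in the comparison of SCP58 with the parent it was lower, at -1.29 (limma adjusted p = 0.00891). Its SCP51 arrays, at 7.53 to 7.99, also lay below the parent's, at 8.26 to 8.30. Of 75 mitochondrial ribosomal proteins 3 were called lower and 0 higher: MRPL13 at -0.94 and MRPS28 at -0.75, both on chromosome 8, and MRPL47 at -0.63. MRPL15, also on chromosome 8, stood at 0.24 and was not called.

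Of 15 tricarboxylic acid cycle genes, IDH3B, a subunit of the NAD-dependent isocitrate dehydrogenase, was called lower at -0.60 (limma adjusted p = 0.0129) and 0 higher. Of 19 glycolysis genes, the glucose transporter gene SLC2A1 was called higher at 0.55 (limma adjusted p = 0.0232) and 0 lower. SLC2A1 measured 11.64, 11.78 and 11.77 in SCP51, 11.34, 11.04 and 11.18 in SCP58, and 11.53, 11.74 and 11.54 in SW480/EGFP. SCP51 thus overlapped the parent, and SCP58 lay below it. None of the 18 regulators of mitochondrial biogenesis, 18 electron and substrate carriers or 19 import genes was called by limma between SCP51 and SCP58 with all arrays. Over all genes 4.08% were called there. GABPB2, a subunit of GABP, was lower in SCP51 than in the parent, at -0.76 (limma adjusted p = 0.0143). The median differences between SCP51 and SCP58 were -0.14 for assembly factors, -0.24 for mitochondrial ribosomal proteins, -0.26 for the cycle and 0.14 for glycolysis, beside -0.36 for the 72 members and -0.11 over all genes. They were 0.15 for biogenesis regulators, -0.01 for import genes and -0.14 for carriers. Leaving out SCP51 replicate 1 gave -0.07 for assembly factors, -0.12 for mitochondrial ribosomal proteins, -0.16 for the cycle, 0.10 for glycolysis, 0.32 for biogenesis regulators, 0.14 for import genes and -0.04 for carriers, beside -0.17 for the members and -0.05 over all genes. The 8 genes named above as called against SCP58 were called without that array too, NDUFAF6 at -0.81, TMEM70 at -0.38, NDUFAF2 at 0.86, MRPL13 at -0.91, MRPS28 at -0.72, MRPL47 at -0.50, IDH3B at -0.56 and SLC2A1 at 0.59. In that fit 3 assembly factors and 1 regulator were called higher, as were 541 of 13428 genes.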

How the data were processed

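Total RNA of cultured cells was labelled with biotin and hybridised to arrays, per the labels' protocols. For each of 54675 probe sets the authors deposited a linear intensity from GCOS 1.4 (per the submitters' processing notes), whose scaling target and summary method are not given in the sources. From the deposited intensities, values under 1 (514) were set to 1 and log2 was taken without rescaling. The 62 control probe sets were left out. Probe sets above their array's median on at least 3 of 9 arrays were kept, and per gene the 1-symbol probe set with the highest mean. Symbols and map order came from RefSeq (GRCh38.p14); the arrays name no build. In the annotation, 41091 probe sets had 1 symbol, 1801 several and 11721 none, and 15 probe sets with several symbols that include a member were not used. The number of arrays limits the precision.

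All 9 arrays entered a limma 3.58.1 model (R 4.3.3) of group means with an intensity trend. Tests were two-sided, adjusted by the Benjamini-Hochberg method over 13598 genes, and called under 0.05. The script was tested on simulated data. Members and lists were chosen with earlier results of these data known. Named members are those called, those on chromosome 8, the highest, lowest and brightest of each complex, isoform genes, and up to 2 called genes of each other list with those on chromosome 8; NDUFB7, NDUFB11, NDUFC1, NDUFA6, NDUFV3, SDHC, MRPL15 and MRPL47 and the 11 members separated on all arrays were added after their values were seen. The labels do not say whether replicate numbers pair arrays. Correlations of deviations between same-numbered arrays of different groups were -0.22 to 0.133, and between different-numbered ones -0.125 to 0.121. Alternatives were another filter or none, quantile normalization, centring on the 75th percentile, 32 added before log2, a fit without the trend or with array weights, averaging a gene's probe sets or testing each singly, fitting only the 6 arrays compared, a replicate block, and leaving out each array. Figures used matplotlib 3.10.9.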

Additional observations from a re-analysis of the deposited data

Results flagged for a closer look

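For 4 members the difference from the parent in SCP51 was not the same as that in SCP58, by the limma test of the difference itself, which equals the comparison of SCP51 with SCP58. The difference from the parent in SCP51 minus that in SCP58 was -0.76 for UQCRB, -0.68 for CYC1, -0.58 for COX6C and -0.54 for NDUFA9 (log2 units). UQCRB stood at -0.64 in SCP51 and 0.11 in SCP58, CYC1 at -0.55 and 0.13, COX6C at -0.52 and 0.06, and NDUFA9 at -0.31 and 0.23, each against the same parent arrays.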

How the results depend on the processing

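The members called with all arrays and 1 probe set per gene kept their sign under every gene-level alternative. Tested by themselves, dimmer probe sets of COX4I1 (0.65) and NDUFV3 (0.49) were called higher, where the brightest probe set of each gene lay below 0. Between SCP51 and SCP58, 4 members were called, and every probe set by itself gave 8 calls (6 lower, 2 higher) among 122 probe sets, against 3.35% of all probe sets. Fitting only the 6 arrays compared gave 2, where 0.985% of all genes were called, against 4.08% with all arrays. Leaving out each array in turn gave 2 to 18 calls, with 18 without SCP51 replicate 3 (3.58% of all genes called lower). There were 2 without replicate 2 of SCP51 or replicate 2 or 3 of SCP58 (1.04% to 1.36% of all genes called). Between SCP51 and SCP58, UQCRB and CYC1 were called in all 19 gene-level alternatives and COX6C in 15. Against the parent, UQCRB and CYC1 were each called in 16 of the 19 and COX6C in 10. Between SCP51 and the parent, where 3 were called, array weights (9.97% of all genes called, against 2.96%) and every probe set by itself (1.89% of all probe sets) each gave 5 and only the 6 arrays compared gave 1 (CYC1); leaving out each array gave 0 to 14, with 14 without SCP51 replicate 3 and 0 without SW480/EGFP replicate 1 or 3. Between SCP58 and the parent, array weights gave 1, SDHC, higher by its brightest probe set. In that fit 1351 of 13598 genes (9.94%) were called, against 0.14% without weights. Leaving out each array gave 0 between SCP58 and the parent. The median difference of all members minus that of all genes was -0.25 between SCP51 and SCP58, -0.11 with array weights, and between -0.34 and -0.12 with an array left out; for the chromosome 8 members it was -0.60, -0.52 with array weights, and -0.62 to -0.53. Against the parent the ranges with an array left out were -0.36 to -0.11 for all members and -0.53 to -0.44 on chromosome 8. With the replicate number as a block, 3 members were called between SCP51 and SCP58, 2 between SCP51 and the parent and 0 between SCP58 and the parent. Over all genes 1.54%, 1.23% and 0.0441% were called in those fits. Whether the replicate numbers pair arrays is not stated in the labels. The cause of these changes was not tested. Dim probe sets near the array median limit what can be said of the tissue-restricted isoforms.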

Other observations

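ATP5IF1, the inhibitor of the ATP synthase, which is no subunit and was counted apart, was lower in SCP51 than in SCP58. It measured 11.08, 11.06 and 11.25 in SCP51, 11.58, 11.55 and 11.44 in SCP58, and 11.31, 11.49 and 11.33 in SW480/EGFP, so that all SCP51 arrays lay below the other 6. The difference from SCP58 was -0.40 ± 0.09 (SE, n = 3 each; limma adjusted p = 0.0435), a call held in 6 of 19 alternatives, and that from the parent was -0.25 ± 0.09 (limma adjusted p = 0.174). COX7A2L, a factor in the joining of complexes III and IV, stood at -0.54 ± 0.29 between SCP51 and SCP58 and at -0.14 without SCP51 replicate 1. NDUFA4, a subunit of complex IV now named COXFA4, does not meet the prefixes under that name and stood at -0.23 ± 0.09 between SCP51 and SCP58 (limma adjusted p = 0.185). COXFA4L2, formerly NDUFA4L2, lay between 5.82 and 6.12 on all 9 arrays and stood at 0.04 ± 0.12.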
